A study of Mus musculus with 4 samples.

Results

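The 4 housekeeping mRNAs of a nanoString nCounter mouse miRNA panel, Actb, B2m, Gapdh and Rpl19, were followed across 4 pools of sorted mouse retinal cells. They were taken by their class label in the count table, which marks 4 of its 626 probes as housekeeping, and all 4 were counted above background in every library. The pools were postnatal day 2 (P2) retinal progenitor cells (RPCs) from 8 retinas, and Müller glia (MG), the radial glia of the retina, of day 8 (P8) from 52 retinas, day 11 (P11) from 32 and adult animals from 40. The RPCs were labelled in Sox2-Cre:tdTomato mice and the glia in Rlbp-Cre:tdTomato mice, in which a tamoxifen-dependent Cre removes a stop cassette in cells that use the Sox2 or the Rlbp driver. All animals, progenitor donors included, received tamoxifen at 75 mg/kg on 2 consecutive days to activate Cre, on days 0 and 1 for P2 RPC, 6 and 7 for P8 glia, 9 and 10 for P11 glia and above day 21 for adult glia, and tdTomato-positive cells were sorted and pooled before RNA extraction. The P11 library is titled P11/12, and the series' design text calls the RPCs adult in its first mention and P2 in its second, whereas the sample's own labels give P2. Each group was 1 library in 1 assay lane, so the differences below rest on single libraries, without replicates and without p-values. Cre line, cell type, age, pool size and lane differ together between P2 RPC and the glia, and age, retinas and lane among the glia, so their contributions cannot be told apart.

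Housekeeping mRNAs are transcripts that nearly all cells carry and that are used as a yardstick for the amount of RNA in an assay, on the premise that their level is steady. The 4 belong to different cell machineries. Actb encodes beta-actin of the cytoskeleton, Gapdh a glycolytic enzyme, Rpl19 a protein of the large ribosomal subunit, and B2m beta-2-microglobulin, the light chain of MHC class I molecules, which interferon induces in many cell types and which microglia and endothelium express strongly. On this assay the miRNAs are first ligated to a tag, whereas mRNA probes bind their targets directly. The probes were designed on NM_007393.1 (Actb, chromosome 5), NM_009735.3 (B2m, chromosome 2), NM_008084.1 (Gapdh, chromosome 6) and NM_009078.1 (Rpl19, chromosome 11), and all 4 accessions matched a RefSeq gene of the same symbol.

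The 250 bases before the RefSeq start (GRCm38.p6) are shown for B2m and Rpl19 because these were the mRNAs called different between adult glia and P2 RPC, in opposite directions. B2m had the widest span over the lanes under 7 settings of lane scaling, no scaling among them. Rpl19 spanned more than Gapdh except on the ligation controls (1.90-fold against 2.62-fold). Capitals mark matches, on either strand, to CACGTG (E-box) and CCGGAA (ETS core). B2m lies at chr2:122147437-122147686 on the plus strand and Rpl19 at chr11:98026460-98026709 on the plus strand, the first of 2 starts listed for it.
B2m: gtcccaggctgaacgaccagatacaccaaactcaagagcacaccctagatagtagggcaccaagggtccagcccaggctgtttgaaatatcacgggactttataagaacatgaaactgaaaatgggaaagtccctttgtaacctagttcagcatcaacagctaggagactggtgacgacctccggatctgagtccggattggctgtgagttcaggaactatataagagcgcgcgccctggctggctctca
Rpl19: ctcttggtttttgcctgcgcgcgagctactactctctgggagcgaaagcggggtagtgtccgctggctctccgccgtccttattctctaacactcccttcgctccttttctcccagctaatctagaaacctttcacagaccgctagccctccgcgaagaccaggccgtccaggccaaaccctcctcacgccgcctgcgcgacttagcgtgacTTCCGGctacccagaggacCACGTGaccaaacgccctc
The Rpl19 window held CCGGAA, on the minus strand, at -38 and CACGTG at -19, counted from the start. The window of the second Rpl19 start, not shown, overlaps the first, and its CACGTG at -233 is the same site. It begins inside the CCGGAA match and so did not hold it whole. The B2m and Gapdh windows held neither, and Actb is named only. Of all 32851 RefSeq windows of this length, 6.02% held CACGTG and 12.0% CCGGAA. These are matches of letters, chosen with the sequences in view, and no binding was measured.

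The lanes held between 576117 and 769736 counts. Background was the mean plus 2 SD of 8 negative controls and stood at 60.7 counts in P2 RPC, 137 in P8 glia, 106 in P11 glia and 71.7 in adult glia. The summed raw counts of 6 miRNAs listed for Müller glia, among them miR-204, were 99819 in P2 RPC and 196740, 240494 and 440937 in P8, P11 and adult glia. Of these, miR-9 had 63981 in P2 RPC and 65337 in adult glia. The 6 miRNAs listed for progenitors, among them miR-25, went the other way, with summed raw counts of 63105, 20054, 7607 and 2992 in that order. Both lists were chosen with earlier results of these data known, so the sums describe the libraries and do not test the labels. Bracketed ranges are 95% counting intervals, which cover counting error only.

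Actb was the most counted of the mRNAs and differed least between lanes. It had 8497 raw counts in P2 RPC, 11535 in P8 glia, 9301 in P11 glia and 7024 in adult glia, highest in P8 glia and lowest in adult glia. Gapdh had 651 raw counts in P2 RPC, 1423 in P8 glia, 936 in P11 glia and 730 in adult glia, again highest in P8 glia. The ribosomal mRNA Rpl19 had 2047 raw counts in P2 RPC, 1829 in P8 glia, 1090 in P11 glia and 681 in adult glia, lower in each older library. B2m had 92 raw counts (74.2 to 113) in P2 RPC, 543 in P8 glia, 629 in P11 glia and 375 in adult glia, so that the P2 RPC library stood apart from all 3 glial ones.

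B2m in P2 RPC was the one weak value. It was 2.57 times the mean of the negative controls, against 7.70 in P8 glia, 12.5 in P11 glia and 9.71 in adult glia. Its 92 counts still lay above every negative control of that lane, of which the highest had 53, and above all 33 viral miRNA probes, of which the highest had 64. Gapdh, the next lowest mRNA in that lane, was 18.2 times the negative-control mean.

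**Figure D1:**
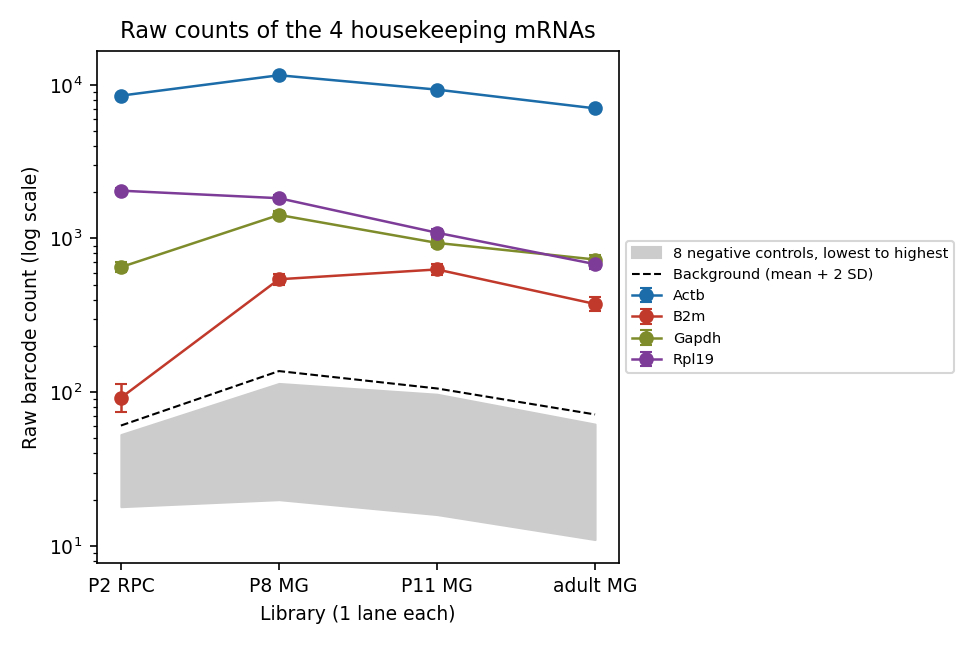
Raw barcode counts (log scale) of the 4 mRNAs in the 4 libraries, in order of age, with 95% Poisson intervals of the single counts. The grey band spans the 8 negative controls and the dashed line is their mean plus 2 SD, which B2m exceeds in P2 RPC with 92 counts against 60.7.

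To compare lanes, the mean of a lane's negative controls was subtracted. The remainder was scaled on the geometric mean of the 5 spiked positive controls above background, synthetic targets added in equal amount to each lane. These controls do not depend on the sample RNA, so unequal RNA input between lanes stays in the scaled counts. Calls needed a count above background in the higher lane, a ratio of at least 2-fold in either direction and a counting interval without equality. A probe at or below background in a lane entered at the threshold. The same rule was run on all mRNA and miRNA probes above background in either lane. In P8 glia against P2 RPC, 104 of 229 miRNA ratios had 1 lane entered at the threshold. In P11 against P8 glia these were 31 of 157, and in adult against P11 glia 38 of 179. They were 93 of 242 in adult glia against P2 RPC and 55 of 180 in adult against P8 glia. The miRNA medians below include these bounds, whereas no mRNA ratio is a bound. After positive-control scaling Actb had 8453 counts in P2 RPC, 10302 in P8 glia, 8754 in P11 glia and 8223 in adult glia, and Gapdh had 615, 1215, 838 and 814 in the same order. Rpl19 had 2009, 1580, 984 and 756, and B2m had 56.2, 425, 548 and 396. For Actb the lanes lay within 1.25-fold of each other, for Gapdh within 1.98-fold, for Rpl19 within 2.66-fold and for B2m within 9.74-fold. Of 117 miRNA probes above background in all lanes, 3 spanned less than Actb, 29 less than Gapdh, 51 less than Rpl19 and 96 less than B2m. The span was also taken under 7 lane settings. These were the positive controls, ligation controls, top 100 miRNA probes, total miRNA count, TMM factors, median of ratios and no lane scaling. Over these settings the span was 1.15-fold to 2.43-fold for Actb, 1.54-fold to 2.89-fold for Gapdh, 1.90-fold to 4.52-fold for Rpl19 and 9.06-fold to 12.3-fold for B2m.

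In P8 glia against P2 RPC, B2m was 7.56-fold higher (5.43 to 11.2), from 543 raw counts in P8 glia and 92 in P2 RPC. Gapdh was 1.98-fold higher (1.79 to 2.18), just under the threshold, and passed it under 6 of 13 other settings, with up to 2.62-fold on the ligation controls. Actb was 1.22-fold higher (1.18 to 1.25), although TMM factors gave 0.946. Rpl19 was 1.27-fold lower (1.19 to 1.36), although the ligation controls gave 1.04. Thus 1 of 4 mRNAs was called higher, where the rule called 11.2% of 233 probes, and none lower, where it called 20.2%. The median log2 ratio of the mRNAs was 0.63, against -0.12 for 229 miRNA probes.

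In P11 glia against P8 glia, the mRNAs were closer together. Rpl19 was 1.61-fold lower (1.48 to 1.74), Gapdh 1.45-fold lower (1.33 to 1.58) and Actb 1.18-fold lower (1.14 to 1.21, with 1.02 on TMM factors), while B2m was 1.29-fold higher (1.13 to 1.47). None of the 4 was called, where the rule called 3.73% of 161 probes higher and 8.7% lower. The median log2 ratio was -0.39, against -0.04 for 157 miRNA probes.

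In adult glia against P11 glia, all 4 ratios were below equality, although on the ligation controls Actb stood at 1.12 and Gapdh at 1.16. B2m was 1.38-fold lower (1.199 to 1.60) and Rpl19 1.30-fold lower (1.17 to 1.44), while Actb was 1.06-fold lower (1.03 to 1.10) and Gapdh, with an interval of 0.875 to 1.08 around 0.971, did not differ beyond counting error. None was called, against 21.9% of 183 probes higher and 13.1% lower, and the median log2 ratio was -0.23, against 0.14 for 179 miRNA probes. On the total miRNA count B2m (2.47-fold) and Rpl19 (2.32-fold) were called lower.

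Over the whole span, adult glia against P2 RPC, B2m and Rpl19 went in opposite directions. B2m was 7.05-fold higher (5.03 to 10.4). Rpl19 was 2.66-fold lower (2.43 to 2.92), from 681 raw counts in adult glia and 2047 in P2 RPC. Actb, at 0.973 (0.942 to 1.004), did not differ beyond counting error, with 0.572 to 1.42 under other settings, and Gapdh was 1.32-fold higher (1.18 to 1.48), although the total miRNA count gave 0.779. So 1 of 4 was called higher, where 22% of 246 probes were, and 1 lower, where 24.8% were. The mRNAs' median log2 ratio was 0.18, against -0.05 for 242 miRNA probes. The B2m call held under all 13 other settings, with ratios between 4.15 and 17.9, and the Rpl19 call under 12, the exception being the ligation controls with a ratio of 0.550.

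Within the glia, adult glia against P8 glia, Rpl19 was 2.09-fold lower (1.90 to 2.30) and was the single call among the 4, where the rule called 19% of 184 probes lower and 23.9% higher. This call was lost on the ligation controls (1.90-fold), TMM factors (1.81-fold) and the median of ratios (1.997-fold). Gapdh was 1.49-fold lower (1.36 to 1.64) and Actb 1.25-fold lower (1.22 to 1.29). B2m, at 0.933 (0.801 to 1.08), did not differ beyond counting error. On the total miRNA count these 3 were called lower too, Gapdh 2.89-fold, Actb 2.43-fold and B2m 2.08-fold. The median log2 ratio was -0.45, against -0.01 for 180 miRNA probes. These 5 comparisons share lanes and are not independent of each other.

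The spread among the 4 mRNAs was set against that of the controls, whose ratios between lanes should all be equal. In P8 glia against P2 RPC the log2 ratios of the mRNAs spanned 3.26, those of the 5 positive controls 0.34 and those of the 3 ligation controls 0.13. In adult glia against P2 RPC the spans were 4.23, 0.24 and 0.46. In P11 glia against P8 glia they were 1.05, 0.16 and 0.20, and in adult glia against P8 glia 0.96, 0.25 and 0.33. Only in adult glia against P11 glia did the mRNAs, with 0.43, span no more than the ligation controls, with 0.45, and there the positive controls spanned 0.27. B2m, weak in P2 RPC, was at 1 end of the mRNA span in all 5 pairs. Among the other mRNAs, Rpl19 and Gapdh lay farthest apart against P2 RPC. The log2 change of their ratio was -1.33 in P8 glia and -1.81 in adult glia. For Rpl19 and Actb, the farthest apart against P8 glia, it was -0.45 in P11 glia and -0.74 in adult glia.

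**Figure D2:**
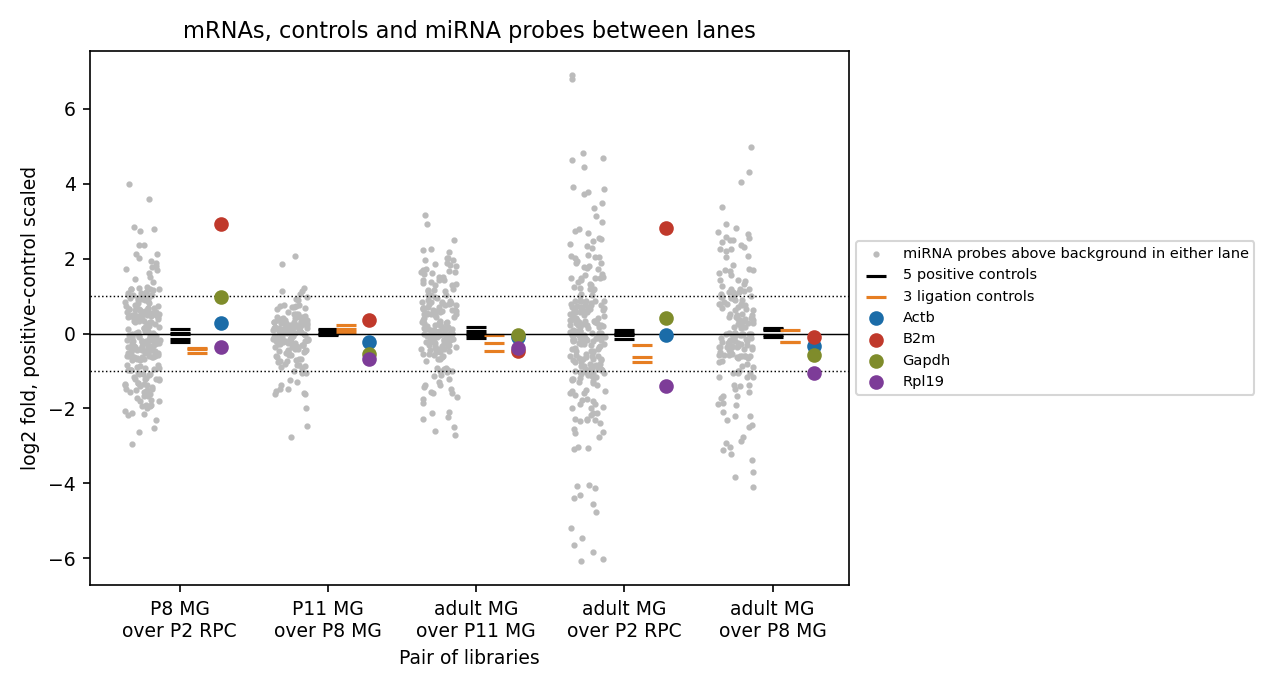
Log2 ratios between pairs of libraries after positive-control scaling for miRNA probes (grey), the 5 positive controls (black), the 3 ligation controls (orange) and the 4 mRNAs (colours). Dotted lines mark 2-fold, and B2m lies at 2.92 in P8 MG over P2 RPC and at 2.82 in adult MG over P2 RPC, while the positive controls stay within 0.34 of each other in the 5 pairs.

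The ligation controls report on the tagging step, which the mRNA probes do not go through, and gave a different lane order. Per 1000 ligation-control counts (geometric mean of 3), Actb had 1733 counts above background in P2 RPC, 2801 in P8 glia, 2196 in P11 glia and 2463 in adult glia. Gapdh had 126 in P2 RPC and 330, 210.3 and 244 in the P8, P11 and adult libraries. Rpl19 had 412, 429.6, 247 and 227 in the same order, so P8 glia and not P2 RPC was its highest lane on this scale. B2m had 11.5, 115, 137 and 119. Relative to the positive controls, the ligation controls themselves had a mean log2 ratio of -0.44 in P8 glia and -0.56 in adult glia against P2 RPC, which lifts every mRNA of the glia when they serve as the base.

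Ratios between mRNAs within a lane need no lane scaling. A ratio in a lane also carries the unequal capture of the probes, so only its course across lanes is read. Rpl19 stood at 23.8% of Actb in P2 RPC (22.6 to 24.97), 15.3% in P8 glia (14.6 to 16.1), 11.2% in P11 glia (10.5 to 12.0) and 9.20% in adult glia (8.45 to 9.99). The 4 intervals do not overlap, and each older library was below the younger one. In adult glia the Rpl19 to Actb ratio was 2.58-fold lower than in P2 RPC (2.35 to 2.85), and no other background setting, nor the authors' processed values, moved it beyond 2.48-fold to 2.74-fold. Rpl19 was also lower relative to Gapdh, at 3.27 in P2 RPC, 1.30 in P8 glia, 1.17 in P11 glia and 0.929 in adult glia.

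B2m relative to Actb was lowest in P2 RPC at 0.665% (0.454 to 0.912). It was 4.12% in P8 glia (3.73 to 4.55), 6.25% in P11 glia (5.72 to 6.82) and 4.82% in adult glia (4.28 to 5.40), and so peaked in P11 glia. Against P2 RPC this ratio was 6.20-fold higher in P8 glia (4.37 to 8.79) and 7.24-fold higher in adult glia (5.08 to 10.3). The size rests on how much background is taken from the 92 counts in P2 RPC, and ran in adult glia from 4.93-fold with none subtracted to 18.8-fold in the authors' processed values. Relative to Rpl19, B2m was 18.7-fold higher in adult glia than in P2 RPC (13.0 to 27.0), the widest contrast among the 6 pairs, and between 12.3-fold and 51.6-fold under the other settings.

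Gapdh relative to Actb moved least. It was 7.27% in P2 RPC (6.67 to 7.91), 11.8% in P8 glia (11.1 to 12.5), 9.57% in P11 glia (8.91 to 10.3) and 9.90% in adult glia (9.12 to 10.7). The progenitor library was below all 3 glial ones, P8 glia was above the rest, and the P11 and adult intervals overlap. Against P2 RPC the ratio was 1.62-fold higher in P8 glia (1.47 to 1.80) and 1.36-fold higher in adult glia (1.21 to 1.53).

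**Figure D3:**
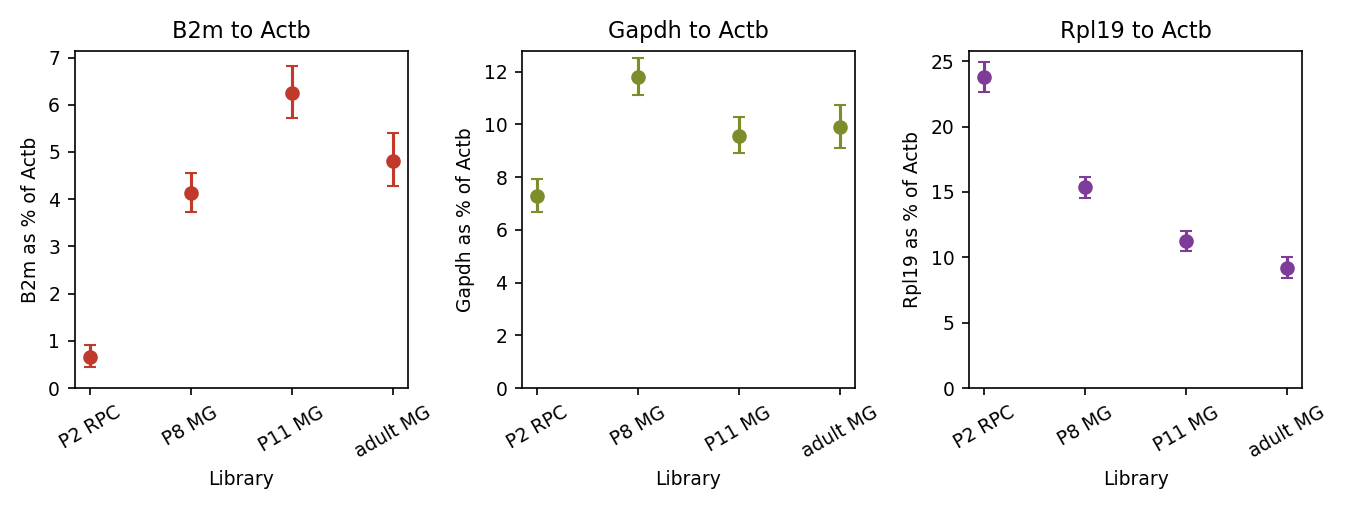
B2m, Gapdh and Rpl19 as a percentage of Actb within each library, after subtracting the mean of the negative controls, with 95% counting intervals as bars and axes that start at 0. Rpl19 is at 9.20% in adult MG against 23.8% in P2 RPC, while B2m lies between 4.12% and 6.25% in the glia against 0.665% in P2 RPC.

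B2m is abundant in immune cells, so miRNAs of other cell types a sort could carry are given beside it. In pooled cells, fewer cells of a type and less RNA per cell cannot be told apart. Of 6 miRNAs listed for microglia and white blood cells, 1 was above background in P2 RPC and 4 in each glial library. Of all 566 mouse miRNA probes, 220 were above background in P2 RPC, 134 in P8 glia, 149 in P11 glia and 171 in adult glia. The summed scaled counts of the 6 listed miRNAs above background were 162 in P2 RPC, 786 in P8 glia, 907 in P11 glia and 488 in adult glia. The high in P11 glia rested on miR-146a. Without miR-146a, a choice made after seeing the data, the sum was 142 in P2 RPC, 484 in P8 glia, 409 in P11 glia and 386 in adult glia, still lowest in P2 RPC but highest in P8 glia, unlike B2m. The blood-lineage miR-142-3p had 42 raw counts in P2 RPC, 262 in P8 glia, 205 in P11 glia and 73 in adult glia, where background was 71.7. miR-146a, an inflammation-associated miRNA that other cells also express, had 56, 407, 576 and 125, the same order of lanes as B2m. Of the remaining listed members above background in the glia, miR-142-5p had 157, 315, 259 and 226 raw counts and miR-150, a lymphocyte miRNA, had 50, 173, 119 and 145, both higher in P8 glia than in P11 glia. In adult glia against P11 glia the log2 ratio after scaling was 0.16 for miR-142-5p and 0.95 for miR-150, against -0.47 for B2m. miR-223, a myeloid miRNA, and miR-155, with 1 count per lane, were at background in all 4. For endothelium, miR-126-3p had 340 raw counts in P2 RPC, 462 in P8 glia, 360 in P11 glia and 208 in adult glia, and miR-126-5p was at background in all 4, so their sum did not have its low in P2 RPC. The mural miR-143 and miR-145 and the red cell miR-451, miR-144 and miR-486 were at background in every lane. The 6 miRNAs listed for Müller glia also had their low in P2 RPC, but their high in adult glia. Their summed scaled counts were 99513 in P2 RPC, 176409 in P8 glia, 227285 in P11 glia and 518766 in adult glia. The part of any of the listed cell types in the B2m counts was not tested.

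**Figure D4:**
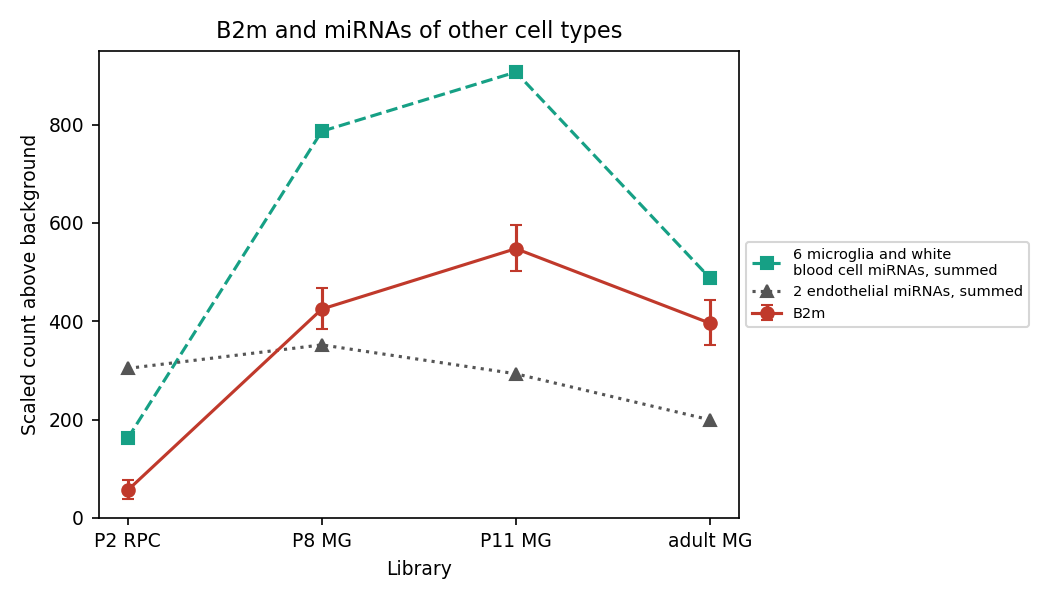
Positive-control-scaled counts above background of B2m (bars are 95% counting intervals), of 6 miRNAs listed for microglia and white blood cells, summed, and of 2 listed for endothelium, summed, on an axis that starts at 0. B2m and the immune list both have their low in P2 RPC (56.2 and 162), as does the Müller glia list (99513), which is not drawn. The immune list's high in P11 MG (907) rests on miR-146a, without which that list has its high in P8 MG (484).

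Rpl19 had its highest scaled count in P2 RPC and its lowest in adult glia, and so had the miRNAs listed for progenitors, with summed scaled counts of 62833 in P2 RPC, 17640 in P8 glia, 6912 in P11 glia and 3249 in adult glia. The photoreceptor list (miR-96, miR-183, miR-182) had 22302, 5225, 1056 and 662 in that order. The neuronal list, led by miR-124, had 7556, 3161, 1400 and 1726, with its low in P11 glia. Within it miR-129-3p went the other way, with 151 raw counts in P2 RPC and 497, 330 and 313 in the P8, P11 and adult libraries. The other members, miR-138 and miR-218, had 241 and 299 raw counts in P2 RPC and were at background in every glial library. Without miR-124, also a choice made after seeing the data, the sum was 583, 423, 294 and 346. Most of it in the glia was miR-129-3p, with scaled counts of 383, 265 and 323 in the P8, P11 and adult libraries. The part of the listed cell types in the Rpl19 counts was not tested.

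The authors' processed values tie every miRNA to these mRNAs. In that table the scores of Actb, B2m, Gapdh and Rpl19 add up to 11292 in P2 RPC, 11293 in P8 glia, 11292 in P11 glia and 11293 in adult glia, so their sum is equal in all lanes by construction. Set against the raw counts, each mRNA or miRNA score was the raw count minus the negative-control mean plus 3 SD, times a lane factor, with values under 1 set to 1. This held to within 2 units for 600 to 603 of 603 mRNA, miRNA and viral probes per lane. Of the 566 miRNA probes, 376 in P2 RPC, 457 in P8 glia, 450 in P11 glia and 424 in adult glia scored at the floor of 1. A match at the floor is a weak check, and the lane factor was itself taken from the summed mRNA scores. The 9 positive and positive ligation controls instead matched a factor of 1 to within 1 unit in all 4 lanes, so in that table they are background-subtracted but not on the scale of the mRNAs. Actb made up 76.6% of the summed scores in P2 RPC, 77.6% in P8 glia, 80.3% in P11 glia and 82.0% in adult glia. Actb scored 8652 in P2 RPC, 8761 in P8 glia, 9063 in P11 glia and 9261 in adult glia. Rpl19 scored 2027, 1279, 946 and 792 in the same order and Gapdh 594, 966, 793 and 857. B2m scored 19 in P2 RPC, the remainder of 92 counts after 73.1 were subtracted, and 287, 490 and 383 in the glia.

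Which mRNA is taken as the yardstick moved the lanes by different amounts. With Actb alone the adult glia lane was raised relative to P2 RPC by 0.28 on the log2 scale, close to 0.24 for the positive controls. Gapdh alone gave -0.17, Rpl19 alone 1.65 and B2m alone -2.58. The geometric mean of the 4 gave -0.21, the value without B2m 0.58 and without Rpl19 -0.82. In P8 glia relative to P2 RPC the shifts were -0.44 for Actb, -1.14 for Gapdh, 0.19 for Rpl19 and -3.07 for B2m. The positive controls gave -0.15 there, so Actb was less close to them. In adult relative to P8 glia Actb gave 0.71 and the positive controls 0.39. Against the positive controls, whose largest multiplier was 1.31 times the smallest, Actb gave 1.64 times, Gapdh 2.20, Rpl19 3.13 and B2m 10.3.

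The miRNA calls followed these shifts. In adult glia against P2 RPC, with 242 miRNA probes above background in either lane, scaling on Actb alone called 22.3% higher and 24% lower. On Gapdh alone 17.8% were higher and 36.4% lower. On Rpl19 alone 45% were higher and 8.26% lower. On B2m alone 3.31% were higher and 83.1% lower. The number called higher thus ran from 8 probes on B2m to 109 on Rpl19 from the same counts, with positive controls giving 53 higher and 60 lower.

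**Figure D5:**
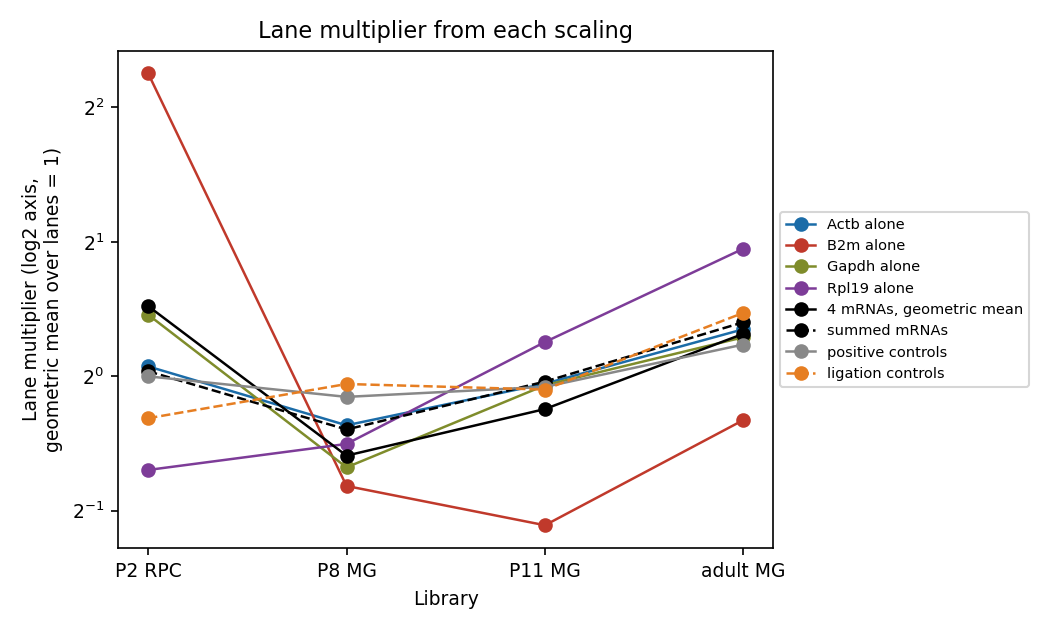
Lane multipliers (log2 axis, geometric mean over the 4 lanes set to 1) from each mRNA alone, from the 4 together and from the positive and ligation controls. The multipliers of Actb, Gapdh and the summed mRNAs nearly meet in P11 MG, while B2m alone gives 0.463 in P11 MG against 4.77 in P2 RPC and Rpl19 alone 1.93 in adult MG against 0.616 in P2 RPC.

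Relative to the miRNAs of the same lane, the summed mRNAs were lowest in adult glia. The 4 mRNAs together, less background, amounted to 2.31% of the raw miRNA count in P2 RPC, 3.20% in P8 glia, 2.43% in P11 glia and 1.24% in adult glia. No background was taken from the miRNA count. The negative-control mean per probe was 35.8 in P2 RPC, 70.5 in P8 glia, 50.4 in P11 glia and 38.6 in adult glia. miR-204 alone had 247414 raw counts in adult glia against 25967 in P2 RPC. Without it the shares were 2.44% in P2 RPC, 3.63% in P8 glia, 3.05% in P11 glia and 1.93% in adult glia, so adult glia was lowest and P8 glia highest either way.

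The miRNA probes most like each mRNA were found among 117 probes above background in all 4 lanes, by the root mean square difference of centred log2 scaled counts over the 4 libraries. Nearest to Actb were miR-674 (0.077), miR-542-5p (0.10) and the abundant neural miR-9 (0.14), the second of these a weak probe with 96, 145, 106 and 88 raw counts. Nearest to Gapdh were miR-200b (0.16), also weak with 87, 155, 121 and 94 raw counts, miR-9 (0.19) and miR-1224 (0.19). Nearest to Rpl19 were miR-423-3p (0.13), with 357 raw counts in P2 RPC, 308 in P8 glia, 199 in P11 glia and 119 in adult glia, then miR-125a-3p (0.15) and miR-331-3p (0.23). B2m had no close match. Its nearest were miR-99a (0.55), let-7c (0.67) and miR-129-3p (0.75), all higher in the 3 glial libraries than in P2 RPC. Among the mRNAs themselves Actb and Gapdh were closest (0.25) and B2m and Rpl19 farthest apart (1.75). The mature sequences of those whose probe name matched a RefSeq name (GRCm38.p6) are shown because they are the miRNAs that tracked Actb or Rpl19, with the seed, bases 2 to 8, in capitals.
miR-542-5p: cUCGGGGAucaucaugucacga
miR-423-3p: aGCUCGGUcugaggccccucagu
miR-125a-3p: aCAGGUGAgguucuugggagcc
miR-331-3p: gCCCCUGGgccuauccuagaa
No 2 of these share a seed. With 4 libraries, likeness of pattern is a description only.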

How the data were processed

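The deposited raw counts are barcodes counted for each probe, and per the file headers nothing was done to them. In the authors' other table each value is a score, and its steps were worked out against the raw counts. Software: not given in the sources used here. Members and lists were chosen with earlier results of these data known. The mean of 8 negative controls was subtracted, lanes were scaled on 5 positive controls (the sixth was not above background in every lane), and ratios carry exact conditional binomial 95% intervals with the background held fixed. Intervals of ratios of ratios come from the delta method on the counts. Named were the 4 mRNAs, the 3 miRNA probes nearest each in pattern, and listed cell type markers. Scaling on all 6 positive controls and background from viral probes were chosen after seeing the data. Tools were Python 3.11.15, scipy 1.17.1, pandas 2.3.3 and, for TMM factors over the miRNA counts, edgeR 4.0.16 in R 4.3.3. Other scalings were the summed positive controls, the ligation controls, the top 100 miRNA probes, the total miRNA count and median-of-ratios factors over probes above background in all lanes.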

Additional observations from a re-analysis of the deposited data

Results flagged for a closer look

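Among the spike-in, negative ligation and viral miRNA probes, which enter no comparison, 1 value stood above the mean plus 3 SD of its lane's negative controls: the viral probe mghv-miR-M1-7-5p had 91 counts in adult MG, where that level was 88.2.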

How the results depend on the processing

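No paired analysis was possible because each group is 1 library. The 4 calls over 5 comparisons became 10 on the total miRNA count and 2 at a fold threshold of 3. In adult MG over P2 RPC, Actb was 0.826 with no lane scaling, 1.01 on summed positive controls, 1.42 on ligation controls, 1.05 on the top 100 miRNA probes, 0.572 on total counts, 0.872 on TMM factors, 1.12 on the median of ratios and 0.939 on all 6 positive controls, so its side of equality follows the scaling. Gapdh was 1.12 with no scaling, 1.94 on ligation controls, 0.779 on total counts and 1.53 on the median of ratios. Rpl19 was 0.319, 0.550, 0.221 and 0.434 on the same 4 and 0.337 on TMM factors. B2m was 4.80 with no background subtracted, 11.4 and 17.9 with the mean plus 2 or 3 SD subtracted and 4.15 on total counts. Its ratio to Actb was 4.93, 11.8 and 18.5 under those 3 backgrounds and 18.8 in the authors' values. The adult MG over P2 RPC factor from the mRNAs, 0.867, was 1.29 from their sum, 0.775 without Actb, 1.5 without B2m, 0.565 without Rpl19, and 1.21, 0.167 and 3.13 on Actb, B2m or Rpl19 alone. The cause of these moves was not tested beyond what each setting fixes by construction. Of the other values, 292 stayed within the counting interval and 114 moved out of it. With 1 lane per group, lane error cannot be told apart from the groups, and counting error limits B2m in P2 RPC most.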
